A study of Homo sapiens with 12 samples.

Results

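The miRNAs described here are those of Huh7 cells that received no 4-thiouridine (4SU), the uridine analog that marks new RNA in SLAMseq. Members are the mature miRNAs with more than 10 CPM (the authors' read count scaled to the library total) in all 4 Control libraries, which gave 340 of the 2652 mature miRNAs in the tables. Huh7 is an established human hepatocellular carcinoma line. The 4 Control libraries, of 12 in the study, came from 4 independent experiments in which cells received the vehicle DMSO for 4 h without 4SU, so they are unlabelled but not strictly untreated. As for the labelled samples, 8 µg of total RNA was alkylated with iodoacetamide before small RNA libraries were made. No other group was compared.

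A miRNA gene is transcribed as a primary transcript in which 1 or more hairpins fold. Drosha and Dicer cut each hairpin into a duplex of a 5p and a 3p strand, of which usually a single strand is kept in an Argonaute protein while its partner is lost. The kept strand finds target mRNAs mainly through its seed, bases 2 to 8, so miRNAs that share a seed form a family with overlapping targets. miR-122 is the characteristic miRNA of hepatocytes, where it acts in lipid metabolism and is needed by hepatitis C virus.

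The sequences of the members that carried most reads are shown to let their seeds, in capitals, be compared. Of the 340 members, 306 had a mature sequence in RefSeq's GRCh38.p14 table, and those of the 10 largest seed families are led by the following, grouped by seed.
miR-21-5p: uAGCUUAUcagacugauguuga
miR-92a-3p: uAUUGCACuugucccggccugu
miR-25-3p: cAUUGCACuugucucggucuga
miR-92b-3p: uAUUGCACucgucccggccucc
miR-122-5p: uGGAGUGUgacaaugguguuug
miR-16-5p: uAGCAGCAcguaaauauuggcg
miR-15b-5p: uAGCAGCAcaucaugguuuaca
miR-15a-5p: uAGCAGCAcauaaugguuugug
miR-26a-5p: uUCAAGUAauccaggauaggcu
miR-26b-5p: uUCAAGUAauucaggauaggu
miR-30e-5p: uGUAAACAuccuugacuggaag
miR-30c-5p: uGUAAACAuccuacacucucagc
miR-30a-5p: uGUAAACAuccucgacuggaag
miR-103a-3p: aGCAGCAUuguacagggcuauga
miR-107: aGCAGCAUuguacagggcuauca
miR-194-5p: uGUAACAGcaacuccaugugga
miR-7-5p: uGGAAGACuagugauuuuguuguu
miR-27b-3p: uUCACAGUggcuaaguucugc
miR-27a-3p: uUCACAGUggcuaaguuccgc

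On GRCh38, the hairpin of miR-21 lies at chr17:59841266-59841337 on the plus strand and overlaps an annotated exon of VMP1. That of miR-122 lies at chr18:58451074-58451158 on the plus strand, in an exon of the non-coding gene MIR122HG. miR-26a comes from introns of CTDSPL (chr3:37969404-37969480) and CTDSP2 (chr12:57824609-57824692), and miR-103a from introns of PANK3 (chr5:168560896-168560973) and PANK2 (chr20:3917494-3917571). The hairpin of miR-107, whose seed is that of miR-103a-3p, lies in an intron of the related gene PANK1 (chr10:89592747-89592827).

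Between 1667668 and 2393680 reads were counted on miRNAs per library. Members held 99.76% ± 0.0115 (SD, n = 4) of them. Of the other miRNAs, 890 had reads and 1422 had none in any library. Just inside the 10 CPM limit was miR-642a-5p, with 18.6, 10.03, 13.2 and 10.5 CPM in replicates 1 to 4, and just outside was miR-1908-3p with 13.8, 10.03, 9.94 and 22.2 CPM. Library pairs differed by more than sampling noise, with chi-square values per degree of freedom of 46.7 to 397 over the members, so all 4 were kept as separate samples. Log2 CPM of the members correlated between library pairs with Pearson's r of 0.980 to 0.989 across miRNAs, which are not independent replicates.

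Few miRNAs made up most of the small RNA pool. The most abundant was miR-21-5p, a miRNA that is raised in many tumours, with 189206, 307112, 238682 and 199187 CPM in replicates 1 to 4. Replicate 2 was the highest and the mean share was 23.4% ± 5.35 (SD, n = 4). miR-92a-3p, of the growth-promoting miR-17~92a transcript, followed with 140707, 114706, 146859 and 140913 CPM. It was lowest in replicate 2 and below miR-21-5p in every library. The hepatocyte miRNA miR-122-5p came next, with 83290, 55353, 69948 and 88380 CPM. These 3 miRNAs together took 44.4% ± 2.84 of the reads, the first 10 took 65.9% ± 1.11 and the first 20 took 79.6% ± 0.436 (SD, n = 4). The first 4 or 5 miRNAs of a library exceeded 50% of its reads, and 40 to 42 miRNAs reached 90%. By contrast, the 154 members with a mean of 10 to 100 CPM held 0.595% ± 0.0158 of the reads.

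**Figure D1:**
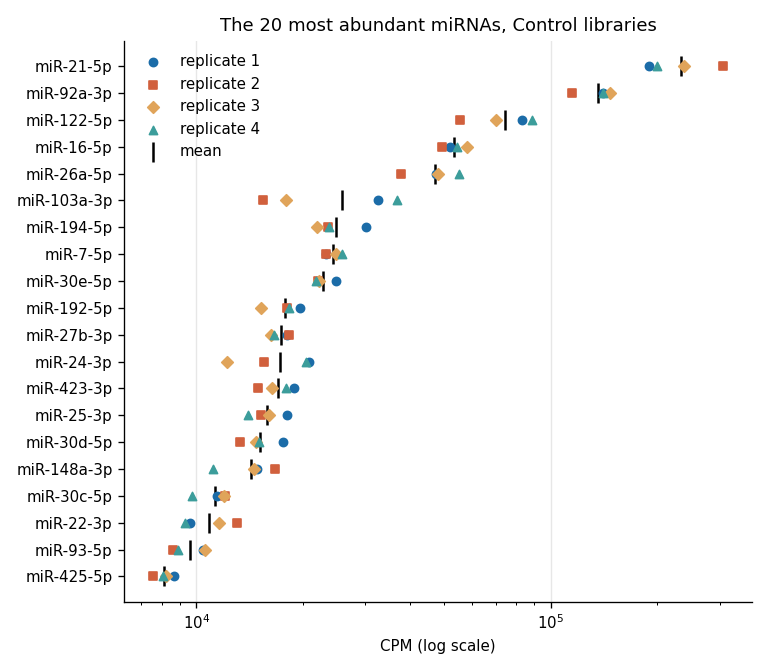
Points give CPM (log axis) of the 20 most abundant miRNAs in each of the 4 Control libraries, and bars mark the mean. miR-21-5p leads in every library, and miR-103a-3p, with 15477 to 36755 CPM, is the member of the 20 with the widest spread on the log scale.

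The order below the first places was less sharp. miR-16-5p, a repressor of cell cycle genes, averaged 53446 CPM ± 3650 and miR-26a-5p 47149 CPM ± 7203 (SD, n = 4). In replicate 4 miR-26a-5p had 55284 CPM against 54408 for miR-16-5p, so the order of these neighbours differed between libraries. From rank 6 to 9 stood miR-103a-3p (25702 CPM ± 10581), miR-194-5p (24788 ± 3603), miR-7-5p (24270 ± 1272) and miR-30e-5p (22719 ± 1413), and the library values of each overlapped those of the next. miR-192-5p, miR-27b-3p, miR-24-3p, miR-423-3p, miR-25-3p, miR-30d-5p, miR-148a-3p, miR-30c-5p, miR-22-3p, miR-93-5p and miR-425-5p completed the 20, with means of 17802 down to 8121 CPM.

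The cells were checked against markers of liver and of other tissues. All 5 hepatocyte markers were members, and summed to 103466 to 139990.1 CPM per library. Besides miR-122-5p, they were miR-194-5p and miR-192-5p (17802 CPM ± 1817), miR-122-3p (4018 CPM) and miR-885-5p (3364 CPM). In contrast, none of 7 muscle, 5 neuron or 6 blood cell markers was a member, with sums of at most 14.2, 28.2 and 4.19 CPM in any library. The 8 markers of pluripotent cells, among them miR-302a-3p and miR-367-3p, had no read in any library. Of 5 mesenchymal markers 3 were members, led by miR-143-3p (93.9 CPM), and the endothelial miR-126-3p was present at 458 CPM and miR-126-5p at 25.7 CPM. Epithelial miRNAs of the miR-200 group were all members at a summed 1315 CPM, led by miR-200b-3p (864 CPM) and miR-200c-3p (182 CPM). So were the 4 pancreas markers, led by miR-217-5p (419 CPM), miR-216b-5p (354 CPM) and miR-375-3p (86.8 CPM). Huh7 is a single line, and bulk samples cannot tell low levels in all its cells from higher levels in few of them.

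Further groups of miRNAs with a shared origin were counted. Of the miR-17~92a transcript and its paralogs, 16 of 28 mature miRNAs were members, and the list held 17.6% of the reads, led by miR-92a-3p, miR-25-3p and miR-93-5p. Of the let-7 family, which restrains growth in differentiated cells, 6 of 20 were members, and the family held 0.358% of the reads. let-7a-5p was the highest at 2134 CPM, followed by let-7f-5p (982 CPM) and let-7e-5p (236 CPM). Of the p53-regulated miR-34, miR-192, miR-194 and miR-215 genes, 6 of 12 were members, with miR-34a-5p at 159 CPM far below miR-194-5p and miR-192-5p. The imprinted chromosome 14 cluster (DLK1-DIO3) gave 1 member of 92, miR-494-3p at 16.4 CPM, and the primate-specific chromosome 19 cluster (C19MC) gave none of 66, of which 64 had no read.

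Most members with a sequence had a seed that no other such member had. The 306 members with a sequence had 255 different seeds, and 83 of these members shared 1 of 32 seeds. The 34 members without a sequence, with 5.76% ± 0.507 of the reads, could not be placed, so the count of sharing members is a minimum. The 10 largest families held 69.9% ± 1.13 of the reads (SD, n = 4). The miR-21-5p family came first because of miR-21-5p itself, and its other miRNA, miR-590-5p, had 15.5 CPM. The family of miR-92a-3p, miR-25-3p, miR-92b-3p and miR-32-5p held 15.2% ± 1.48 of the reads, of which miR-92a-3p was 89.1%. miR-122-5p was alone in its family with 7.42% ± 1.48. In the miR-16-5p family of 6 members (5.85% ± 0.396), miR-16-5p was 91.3%, ahead of miR-15b-5p (3407 CPM), miR-15a-5p (1321 CPM), miR-424-5p, miR-195-5p and miR-497-5p (18.1 CPM). miR-26a-5p was 92.5% of the pair with miR-26b-5p (5.10% ± 0.741 of the reads). The miR-27b-3p family with miR-27a-3p held 1.92% ± 0.133.

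Less uneven was the miR-30 family, known for targets in differentiation. miR-30e-5p was 65.7% of the family that could be formed from the sequences, with miR-30c-5p and miR-30a-5p, at 3.46% ± 0.196 of the reads. With miR-30d-5p and miR-30b-5p, taken by name, the miR-30 5p strands reached 5.05% ± 0.327 (SD, n = 4). The miR-103a-3p family (2.61% ± 1.06) was the most variable of the 10 relative to its size. Its second member miR-107 averaged 391 CPM, and miR-103a-3p was 98.5% of it. miR-194-5p (2.48% ± 0.360) and miR-7-5p (2.43% ± 0.127) had no family partner among the tables' sequences.

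Hairpins within 10 kb of each other on a strand were treated as a cluster, and 134 members with 43.6% ± 2.00 of the reads (SD, n = 4) had a hairpin in one. A mature miRNA made at several loci was counted in at each of them, as the tables give 1 count per name. The MIR17HG cluster (chr13:91350605-91351391, plus strand) held 14.7% ± 1.45, of which 0.938% was left without miRNAs shared with other loci. Its X-linked paralog, with the second copy of miR-92a (chrX:134169378-134170278, minus strand), held 13.8% with shared miRNAs and 0.00378% without. Within MIR17HG the stronger arms spanned 130.0-fold, from miR-92a-3p to miR-19a-3p (1045 CPM ± 249). Between them lay miR-17-5p (2973 CPM ± 126), miR-20a-5p with 2770 CPM ± 394, miR-19b-3p with 1863 CPM ± 240, and miR-18a-5p (1361 CPM ± 105).

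The other large clusters were also described with and without shared miRNAs. The cluster of MIR15B and MIR16-2 in an intron of SMC4 held 5.80% and that of MIR15A and MIR16-1 in DLEU2 5.48%, which were 0.457% and 0.134% without the shared miR-16-5p. The chromosome 11 cluster of MIR192, MIR194-2, MIR6749 and MIR6750 held 4.28% (1.80% without shared miRNAs). Their counterpart MIR215 and MIR194-1 on chromosome 1 held 2.49%, of which only 0.00713% was its own, since miR-215-5p had 71.1 CPM. MIR23B, MIR27B and MIR24-1 in AOPEP held 4.21% and MIR23A, MIR27A and MIR24-2 in MIR23AHG 2.34%. MIR30E and MIR30C1 in NFYC held 3.52%. The only one of the 10 that had no shared miRNA was that of MIR25, MIR93 and MIR106B in MCM7 (chr7:100093560-100094074, minus strand), with 2.93% ± 0.268. It was the largest once shared miRNAs were left out, and miR-25-3p exceeded miR-106b-5p in it by 6.61-fold.

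By annotation, 185 members lay in introns only and held 32.1% ± 1.77 of the reads, whereas the 83 members overlapping an exon held 56.3% ± 2.50 (SD, n = 4). miR-21-5p, miR-92a-3p and miR-122-5p, which together held 44.4% ± 2.84 of the reads, were among the latter. Without these miRNAs the exon group would hold less than the intron group. Another 42 members were intergenic with 1.25% of the reads, 14 had loci of different kinds, and 16 had no locus in the table. Members in protein-coding hosts only (178) held 49.7% ± 3.31 and those in non-coding hosts only (98) held 34.7% ± 2.41. Hosts were assigned by overlap, and miR-21-5p, counted with VMP1 in the first group, alone held 23.4% ± 5.35 of the reads. Without it the first group would hold less than the second.

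To ask which strand of each hairpin was kept, reads of the 5p and 3p arms were compared within libraries for the 209 hairpin units whose arms summed to over 10 CPM in each. Hairpins with a mature miRNA of the same name were joined in 1 unit. miR-500a and miR-500b remained separate by this rule, although their 5p arms had the same 628 reads, all multi-mapping, so these reads entered both units and the call of more 5p for miR-500b is uncertain. Both are named after their values were seen. The arms differed in 189 units, 90.4% of those tested (edgeR's quasi-likelihood test, Benjamini-Hochberg adjusted p under 0.05), with 5p higher in 105 and 3p higher in 84. The median unit had 96.3% of its reads on its major arm, and the major arm held over 95% in 116 units and over 99% in 59. In 197 units the same arm was higher in all 4 libraries. Summed over the units, the minor arms held 2.80% ± 0.177 of the reads and 5p arms 65.9% ± 2.20 (SD, n = 4).

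Of the most abundant miRNAs, miR-21 had 98.7, 99.3, 99.3 and 99.3% of its reads on the 5p arm in replicates 1 to 4. miR-122 was less one-sided, with 96.1, 93.3, 94.1 and 95.4% (94.7% ± 1.28, SD, n = 4), so that its passenger strand miR-122-3p still ranked 36th of the members. The 5p arm of miR-122 exceeded its 3p arm by 4.19 on the log2 scale (SE 0.18, adjusted p = 2.89e-08, edgeR's quasi-likelihood test). miR-92a was of the opposite kind, with 0.458% ± 0.0527 on the 5p arm (log2 ratio -7.77, SE 0.17). Among the 3p miRNAs of the first 20, the minor 5p arm was largest for miR-423 (7.98% ± 0.578), followed by miR-27b (3.32% ± 0.343), miR-22 (3.17% ± 0.584), miR-25 (2.93% ± 0.927) and miR-148a (2.47% ± 0.711). The 5p arm of miR-16 held 98.3% of its reads, of miR-93 97.6% and of miR-30e 95.2%. Of miR-16-5p reads 99.7% were multi-mapping, and with uniquely mapped reads alone miR-16 had more 3p (log2 ratio -2.33). For miR-26a, miR-194, miR-7, miR-192, miR-30d, miR-30c and miR-425 it held from 98.6 to 99.9%.

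The largest arm ratios were limited by the count of the minor arm. The 10 units named here were ranked by the fitted log2 ratio, which for an arm without reads depends on a prior count, so their order is not one of measured folds. miR-95, with 3 reads of 5p beside 4672 of 3p, was not among them and is named after its values were seen. No read of miR-574-5p was found beside 7233 reads of miR-574-3p, which at a floor of 3 reads over the 4 libraries is at least 2411-fold more 3p. The floor covers counting error only, and how reads of the repeat in the 5p strand were mapped was not tested. These arms are shown because of that repeat.
miR-574-5p: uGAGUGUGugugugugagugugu
miR-574-3p: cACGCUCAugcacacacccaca

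The 3p arm of miR-450b and of let-7g and the 5p arm of miR-548o likewise had no read, which gives at least 512-fold more 5p, at least 361-fold more 5p and at least 323-fold more 3p. The other 6 units had few reads of the minor arm. miR-103a had 21 reads of 5p beside 211743 of 3p, miR-320a 13 beside 46270 and miR-101 15 beside 36589. miR-186 had 7 reads of 3p beside 61142 of 5p, miR-196a 8 beside 14948 and miR-30d 79 beside 123718. miR-103a-3p and miR-101-3p also had many multi-mapping reads (69.9% and 93.1%), and the part of this in the ratio was not tested.

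At the other end, 83 units had both arms among the members, and 10 of these did not pass the test (43 with more 5p, 30 with more 3p). miR-151a was the most abundant balanced unit, with miR-151a-5p at 6114 CPM and miR-151a-3p at 5150 CPM (log2 ratio 0.15, SE 0.22, edgeR adjusted p = 0.534). Its 5p share was 58.8, 40.6, 47.2 and 63.4% in replicates 1 to 4, so the higher arm changed between libraries. The multi-mapping share of miR-151a-5p was 96.1, 92.2, 92.5 and 96.2%, and with uniquely mapped reads alone the unit had more 3p (log2 ratio -2.999).

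miR-29b, miR-582, miR-301a, miR-671 and miR-3074 also had mean 5p shares between 45.9 and 57.3%. For miR-29b the libraries ranged from 33.6 to 65.8% and for miR-582 from 39.3 to 63.3%, whereas miR-671 stayed between 44.1 and 47.8%. With uniquely mapped reads alone the log2 ratio was 2.25 for miR-29b and -2.09 for miR-3074, each on the other side of 0. That setting left out 72.5% of the reads of miR-29b-3p and 71.4% of those of miR-3074-5p. miR-28, a pair of 931 and 723 CPM, was close to even and still passed, with 5p shares of 58.9, 54.8, 57.2 and 54.2% and an adjusted p of 0.0423 (edgeR's quasi-likelihood test). That call was lost without the replicate block (adjusted p = 0.0903) and without replicate 1, 2 or 3. miR-424, at 59.6% ± 6.62 (adjusted p = 0.0445, edgeR), lost its call without replicate 1, 2 or 3 too. miR-576 (40.2% ± 10.7) and miR-216a (60.6% ± 6.07) did not pass, and with uniquely mapped reads alone miR-576 turned to more 5p (log2 ratio 3.86). Of the miR-576-3p reads, 92.5% were multi-mapping and so left out there.

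The first base was compared between kept and minor strands, because Argonaute proteins are known to bind this base in a pocket that favours U or A. In 161 units that passed and had both sequences, 58.4% of major arms began with U against 18.6% of minor arms, while 13.7% and 37.9% began with C. By contrast, fewer major than minor arms began with A (21.7% against 30.4%). Over all 2370 mature sequences of the table, 36.8% began with U, 27.6% with A and 21.8% with C. The pattern for U held on either side, with U first in 60.0% of 90 major 5p arms and in 56.3% of 71 major 3p arms. Weighted by reads, members that begin with U held 75.8% of all reads. These shares are descriptions over miRNAs, and were not tested.

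Because the authors kept reads that map to several places, the share of such reads was followed for each miRNA. It was bimodal, with a median of 0.00587% over the members, 165 members without any and 45 members at 90% or more, which held 29.8% ± 2.52 of all reads. Members whose sequence has several loci or names in the table (34) had a median of 93.8% and the 272 with 1 locus and name a median of 0, but 23 of the latter, miR-1269b and miR-378a-3p among them, were over 50% and 2 of the former were below. Among members with a mean over 1000 CPM, the highest shares were those of miR-1269b and miR-378a-3p (99.96 and 99.9%), let-7a-5p and miR-16-5p (99.7% each), miR-125b-5p (99.6%), miR-26a-5p (98.99%), miR-30c-5p (98.97%), miR-7-5p (97.8%), miR-92a-3p (97.6%) and miR-218-5p (95.3%). With uniquely mapped reads alone, miR-21-5p and miR-122-5p led, miR-30e-5p went from rank 9 to rank 3 and miR-103a-3p from rank 6 to rank 15, while miR-92a-3p, miR-16-5p, miR-26a-5p, miR-7-5p and miR-24-3p left the first 15.

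For some miRNAs the multi-mapping share itself differed between the 4 libraries. Of members with a mean over 100 CPM, 13 moved by over 10 percentage points, and in 12 of these both replicates 1 and 4 were above both replicates 2 and 3. Of all 33 members that moved so far, this held for 18, the reverse for 2, and 13 were mixed. miR-103a-3p had 99.5, 9.07, 9.42 and 99.6% in replicates 1 to 4. Its level went the same way, with 32664, 15477, 17910 and 36755 CPM. miR-24-3p had 99.4, 36.3, 35.8 and 99.5%, and 20801, 15555, 12190 and 20391 CPM. The shares of the hepatocyte miRNA miR-885-5p were 98.4, 5.44, 5.28 and 98.1%, with 3683, 2572, 3462 and 3739 CPM. Here the share split the libraries but the level did not, since replicate 3 was close to replicates 1 and 4. miR-194-5p, miR-181a-5p, miR-181b-5p, miR-339-5p, miR-625-3p, miR-365b-3p, miR-548o-3p, miR-576-3p and miR-320b moved the same way, and miR-320c did not. miR-885-5p, miR-181b-5p, miR-339-5p, miR-625-3p, miR-365b-3p, miR-320b and miR-320c were named after their values were seen, and what set the libraries apart was not tested.

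**Figure D2:**
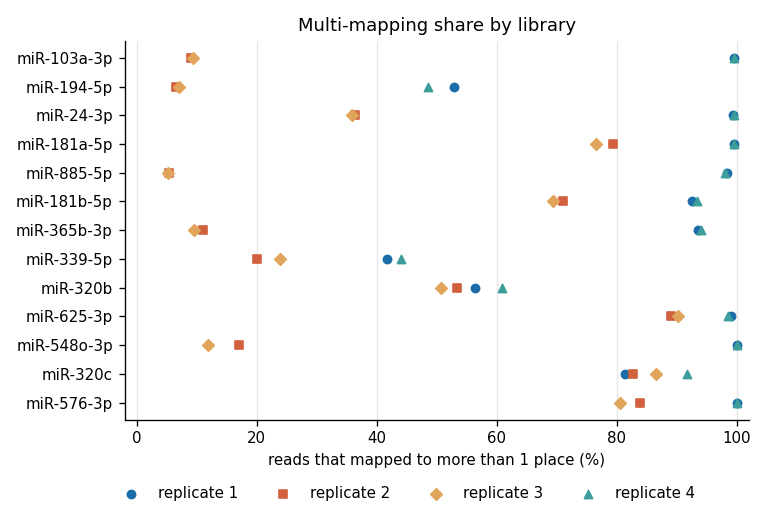
Points give, for each of the 4 Control libraries, the share of reads (%) that mapped to more than 1 place, for the 13 members over 100 CPM in which it differed by over 10 points. In 12 of the 13 rows replicates 1 and 4 lie to the right of replicates 2 and 3, with gaps up to about the whole axis for miR-885-5p and miR-103a-3p.

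The miR-365 pair is shown because its 3p strands have the same sequence but separate names for their loci in MIR193BHG (chr16:14309285-14309371) and MIR365BHG (chr17:31575411-31575521).
miR-365a-3p: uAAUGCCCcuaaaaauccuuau
miR-365b-3p: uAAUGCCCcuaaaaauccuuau

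miR-365a-3p had 370, 53.1, 38.1 and 392 CPM in replicates 1 to 4, a 10.3-fold range, whereas miR-365b-3p had 396, 510, 401 and 418 CPM. Added together, the pair had 766, 563, 439 and 810 CPM. The levels of the single names are therefore uncertain.

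Between the experiments, most members varied little. The biological coefficient of variation, the replicate spread beyond counting error, was 22.6% in common, with 15.04 to 30.2% from the 10th to the 90th centile of the members. In 272 of the 340 members the highest library was less than 2-fold above the lowest, with a median ratio of 1.52. The median SD of log2 CPM fell from 0.37 in members of 10 to 100 CPM to 0.22 between 100 and 1000 CPM and 0.16 above, where counting alone would give 0.19, 0.06 and 0.02. Of the 186 members with a mean over 100 CPM, 13 had an SD over 0.5.

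The most variable of these 186 was miR-365a-3p (SD 1.79), followed by miR-33b-3p, from an intron of the lipid regulator SREBF1, with 107, 41.8, 129 and 123 CPM (SD 0.76). miR-151a-5p (0.64), miR-103a-3p (0.62), miR-548o-3p (0.62) and miR-941 (0.58) came next and were all above 50% in multi-mapping share. miR-374b-5p, miR-191-3p, miR-125a-3p and miR-10b-5p, which had at most 0.0965% of such reads, were between 0.55 and 0.58. miR-374b-5p was lowest in replicate 1 (330 CPM) and highest in replicate 3 (846 CPM), while miR-191-3p and miR-125a-3p were lowest in replicate 2 (98.6 and 63.9 CPM).

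The steadiest were miR-574-3p, with 886, 864, 896 and 865 CPM (SD 0.03), miR-335-3p (195 to 203 CPM), miR-140-5p (434 to 457 CPM), miR-186-5p (7145 to 7656 CPM) and miR-15a-5p (1280 to 1374 CPM). The SDs of miR-574-3p and miR-335-3p, 0.0265 and 0.0268, were below those that counting alone gives, 0.0343 and 0.0722. Levels moved with base composition in replicates 1 and 2. Members over 100 CPM in the most GC-rich of 3 classes (54 miRNAs, at least 52.63% GC) deviated from their own mean by a median of 0.19 on the log2 scale in replicate 1, -0.13 in replicate 2, -0.0062 in replicate 3 and 0.00056 in replicate 4. The lowest class (56 miRNAs, at most 40.91% GC) deviated by a median of -0.064, 0.041, 0.037 and -0.010 in replicates 1 to 4. The part of base composition in the spread was not tested.

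Without 4SU, T>C conversions are background. Over the members, 15015 conversions at 55877376 covered T positions gave a pooled rate of 0.0269%, and the libraries had 0.0261, 0.0279, 0.0319 and 0.0225%. Each of 145 members with at least 10000 covered T positions was compared with the pooled rate of its libraries. The rate was higher in 10 (6.90% of those tested) and lower in 12 (8.28%) with Benjamini-Hochberg adjustment. The test was an F-test computed from edgeR's quasi-likelihood fit, and T>C values marked edgeR are from it. This count depended on single libraries, with 14 calls without replicate 1, 18 without replicate 2, 9 without replicate 3 and 10 without replicate 4. It also depended on the reference and the test, with 33 higher and 6 lower against the median rate and 22 higher and 42 lower by an exact Poisson test against the pooled rate. The median rate of those tested was 0.0190%, and 14 had no conversion.

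The highest rate of the 145 was that of miR-25-3p. It had 0.190, 0.163, 0.209 and 0.163% in replicates 1 to 4, or 1858 conversions at 1033674 positions (0.180%, 95% Wilson interval 0.172 to 0.188%), 6.66 times the reference (edgeR adjusted p = 4.60e-16). With 1.85% of the covered T positions it gave 12.4% of all conversions, and without it the pooled rate was 0.0240%. miR-26b-5p had 0.147, 0.0797, 0.162 and 0.0610% (3.89 times the reference) and miR-18a-5p 0.145, 0.112, 0.0863 and 0.0782% (3.81 times). Both were above the pooled rate of the library in all 4 libraries, as were miR-125b-5p (0.0828%), miR-1269a (0.0638%), miR-425-5p (0.0564%) and miR-122-5p (0.0407%, with 0.0413, 0.0442, 0.0476 and 0.0340% in the libraries). miR-122-5p, at 1.54 times the reference, gave 13.2% of all conversions.

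**Figure D3:**
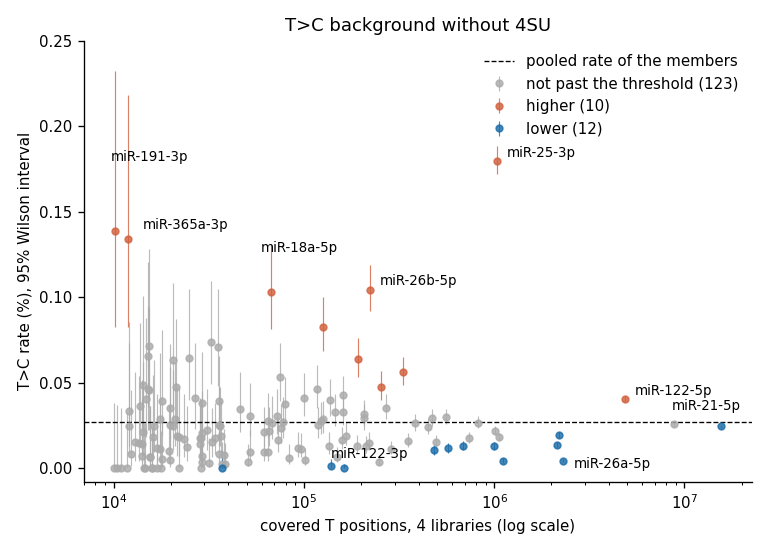
Each point is 1 of 145 members, with covered T positions summed over the 4 Control libraries (log axis) against its T>C rate (%) and 95% Wilson interval, coloured by edgeR's call against the pooled rate (dashed, 0.0269%). miR-25-3p stands apart at 0.180%, and miR-26a-5p lies near 0 at a depth of 2305853 positions.

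The remaining higher calls rested on less. miR-365a-3p (0.134%) had 0, 4, 7 and 5 conversions in replicates 1 to 4 and miR-191-3p (0.139%) had 0, 10, 3 and 1, with no conversion in replicate 1 for either. The sequence of miR-365a-3p is also that of miR-365b-3p, which was not among the higher calls. Of the miR-365a-3p reads, 99.9% were multi-mapping, so the rate of this single name is uncertain. miR-181a-5p (0.0475%) lost its call without replicate 2, 3 or 4, and miR-365a-3p, miR-125b-5p and miR-425-5p lost theirs without replicate 3 (edgeR adjusted p of 0.291, 0.115 and 0.0533). miR-125b-5p had 0.196% in that replicate and at most 0.0567% in the others.

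At the low end, miR-122-3p had 0 conversions at 161798 covered T positions, the most of any member without a conversion, which allows a rate of up to 0.00185% at 3 conversions. The partner strand miR-122-5p of the same hairpin was among the higher calls. miR-30b-5p had 0 at 37029 positions and miR-320a-3p 2 at 138810 (0.00144%). miR-26a-5p (0.00429%) and miR-30e-5p (0.00442%) were low at 2305853 and 1109806 positions, with 0.00213, 0.00709, 0.00637 and 0.00230% for miR-26a-5p in the libraries. These were 0.161 and 0.164 times the reference (edgeR adjusted p = 4.45e-05 and 0.000374). The calls of miR-122-3p, miR-30b-5p and miR-320a-3p were lost when single libraries were left out, for miR-30b-5p and miR-320a-3p with any of the 4 and for miR-122-3p with replicate 1, 3 or 4.

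Of the other most abundant members, miR-21-5p was 0.903 times the reference (0.0245%, adjusted p = 0.0194), miR-16-5p 0.713 times (0.0192%, adjusted p = 0.0341) and miR-7-5p 0.512 times (0.0137%, adjusted p = 0.000442), all by the F-test on edgeR's quasi-likelihood fit. The call of miR-21-5p was lost without replicate 2, 3 or 4 and that of miR-16-5p without replicate 1, 3 or 4. Their direction also depended on the reference, of whose covered T positions miR-21-5p itself held 28.0%. Against the median rate of the tested members both were above the reference (log2 ratio 0.74 for miR-21-5p and 0.31 for miR-16-5p), and counted by reads with a conversion the log2 ratio of miR-21-5p was 0.0629. miR-92a-3p (0.0256%), miR-103a-3p (0.0181%), miR-194-5p (0.0219%) and miR-192-5p (0.0177%) did not pass, though miR-103a-3p did without replicate 2, and against the median rate these 4 were above the reference too.

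Some called miRNAs differ from a more abundant family member by a base that is U in one and C in the other. Counted from 1 at the 5′ end, miR-26b-5p differs from miR-26a-5p by U11C and U21C over 21 aligned bases, and miR-26a-5p had 12.3 times its reads. miR-25-3p differs from miR-92a-3p by C1U, U14C, U18C and A22U, and miR-92a-3p had 8.57 times its reads. Each tested member was compared only with the most abundant other miRNA of its seed. Where that miRNA was the more abundant and differed at up to 4 bases, at least 1 of them U to C, 2 had a higher rate, miR-25-3p and miR-26b-5p, and 6 did not pass. The latter were miR-181b-5p, miR-20a-5p, miR-99a-5p, miR-148b-3p, miR-19a-3p and miR-100-5p, with rates of 0.00958 to 0.0462%, and miR-181b-5p, miR-99a-5p, miR-148b-3p and miR-100-5p are named here after their values were seen. The count of 6 is a minimum, since closer relatives of lower abundance were not compared. For example, miR-15a-5p (0.0236%, not past) was compared with miR-16-5p at 6 differences, although the more abundant miR-15b-5p is closer to it. Whether reads of a family member enter the rate was not tested.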

How the data were processed

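Small RNA libraries of 4 Control samples were analysed, grouped by the sample labels. The authors removed adapters with Trim Galore, discarded longer reads, mapped to GRCh38 and counted on mature coordinates of miRBase 22 by SLAM-DUNK, run through nf-core's SLAMseq workflow, without a mapping quality filter and with SNP masking. The deposited tables hold counts of reads, multi-mapping reads, covered T positions and conversions, the authors' CPM, and conversion rates as a fraction, printed here in percent. CPM and rates were checked against the counts. Assignment among copies can change CPM, and masked positions the rates.

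The arm test used edgeR 4.0.16 in R 4.3.3 (quasi-likelihood, library totals as size, library as replicate block). T>C conversions were fitted by edgeR's quasi-likelihood method with expected conversions as offset. Whether the rate equalled the offset was tested by an F-test computed separately from the deviances of that fit, with a Poisson floor on p. The SE is the log2 ratio divided by the square root of F. DESeq2 1.42.0 was an alternative. The Benjamini-Hochberg threshold was 0.05. Both tests were checked on simulated data. Tables were made in Python 3.11.15 with pandas 2.3.3, numpy 2.4.6 and scipy 1.17.1, and drawn with matplotlib 3.10.9. Sequences and loci are RefSeq's (GRCh38.p14), hosts GENCODE 44. Where RefSeq's table had no hairpin, the span of its mature miRNAs was used. Intervals are 95% Wilson intervals, and with floors of 3 counts cover counting error only, as reads had no molecular identifiers.

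Replicate numbers pair the arms because both come from the same library. Members and lists were chosen with earlier results of these data known. Named were the 20 most abundant members, the 10 largest families and clusters, the 10 largest and smallest arm ratios, the 10 highest multi-mapping shares over 1000 CPM, the 10 largest and 5 smallest SDs over 100 CPM, the 10 highest and 5 lowest T>C rates past the threshold and the 3 highest of each list. The 8 labelled libraries were not used here.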

Additional observations from a re-analysis of the deposited data

Results flagged for a closer look

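In 9 of 110 sets of 4 library values, the highest or lowest library lay apart from the others by more than Dixon's 95% limit (which chance meets in about 1 of 20 sets, or 5.5 of 110). miR-30e-5p was high in replicate 1 with 24822 CPM against 21783 to 22198. miR-140-5p was also high there, with 456.93 CPM against 434 to 437. The 5p share of miR-21 was low in replicate 1 (98.7343% against 99.2559 to 99.2827%) and that of miR-196a in replicate 3 (99.7609% against 100%). The miR-196a flag rests on 8 reads of 3p in replicate 3 and 0 in the others. With the other libraries tied at 100%, any lower value is flagged, so the rate of 1 in 20 does not apply to it. The 5p share of miR-7 was high in replicate 2 (99.5674% against 99.4012 to 99.4262%). In replicate 4 the 5p share of miR-24 was low (0.311163% against 0.558996 to 0.590041%) and that of miR-148a high (3.53095% against 1.9924 to 2.19821%). The T>C rate of miR-125b-5p was high in replicate 3 (0.19609% against 0.036677 to 0.056733%), and that of miR-192-5p low in replicate 2 (0.01487% against 0.018791 to 0.019012%).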

How the results depend on the processing

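Of 624 values of 60 named miRNAs and units under an alternative, 555 kept direction and side of the threshold, 41 lost their call, 10 gained one and 18 turned. There were 340 members, 555 at over 1 CPM, 171 at over 100 CPM and 345 to 348 with a library left out. Uniquely mapped reads raised the share of the 10 most abundant from 65.9 to 68.6% and of the largest seed family from 23.4 to 35.7%. With a library left out these were 65.7 to 66.5% and 20.9 to 24.8%, and the largest cluster 14.3 to 15.4%. Without shared miRNAs the largest cluster held 2.93%. Of the arms, 122 units (51 with more 3p) passed at over 100 CPM, since fewer were tested, and 184 to 190 with a library left out. Without the replicate block 193 units passed, as with DESeq2, and of the named units it changed the calls of miR-28 and miR-576. Log2 arm ratios turned for miR-29b (0.0165 without the block, 2.25 with unique reads, and -0.39 to 0.25 with a library left out, above 0 without replicate 2 or 3), miR-582 (-0.425 to 0.0471, above 0 without replicate 2), miR-151a (-2.999 with unique reads, -0.0675 to 0.383 with a library left out, below 0 without replicate 4), and with unique reads miR-3074 (-2.09), miR-576 (3.86) and miR-16 (-2.33). The cause was not tested. For T>C, the median rate as reference gave 39 calls (33 higher, 6 lower), the exact Poisson test 64 (22 and 42) and reads with a conversion 33 (20 lower). With a library left out there were 9 to 18 (5 to 8 higher, 3 to 10 lower). Against the median, log2 ratios turned for miR-21-5p (0.74), miR-92a-3p (0.80), miR-16-5p (0.31), miR-103a-3p (0.44), miR-194-5p (0.60) and miR-192-5p (0.30), since that reference is lower, and counted by reads for miR-21-5p (0.0629) and miR-92a-3p (0.12). The coefficient of variation was 16.7% over 100 CPM, 20.9 to 24.6% with a library left out, and 21.5% without the members whose multi-mapping share moved, an alternative chosen after seeing the data. The median multi-mapping share was 0.0670% over 100 CPM and 0 with a library left out. Low T coverage limits the T>C calls.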
